A study of Saccharomyces cerevisiae with 4 samples.

Results

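The transcripts described here are the Gag and Gag-Pol reading frames of the Ty retrotransposons of Saccharomyces cerevisiae. They were taken as a fixed list of 60 annotated frames out of 6418 genes in the tables, and all 60 were found there. The 60 frames make up 30 elements with 1 Gag and 1 Gag-Pol frame each: 24 Ty1, 3 Ty2, 1 Ty3 and 2 Ty4 elements. The list was drawn up with earlier results of these data known, and it holds 3 of the 10 Ty2 elements in the tables. Their levels were compared among 4 strains that carry a type V CRISPR activator, with 1 RNA-seq library per strain.

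All strains were built on CEN.PK2-1C (mating type MATa, with ura3-52 and trp1-289, with leu2-3_112 and his3D1, and with the alleles SUC2 and MAL2-8c), express MCP-VP64 (the MS2 coat protein fused to the VP64 activation domain) and carry a yEGFP reporter with the lexOpR target. byMM1777 holds the nuclease-dead Cas protein denAsCas12a without a scaffold RNA (ScRNA), and byMM1827 is the same design plus ScRNA-5′, which targets lexOpR and the HED1 promoter. byMM1736 holds dCas12e without an ScRNA, and byMM1832 adds ScRNA-L1, which targets lexOpR and the GAL7 promoter. The strains carry the marker genes Leu2, Ura3 and Trp1 on their constructs, and byMM1827 and byMM1832 carry His3 in addition, so that the His3 marker cannot be told apart from the ScRNA. Strains with an ScRNA for an endogenous promoter were selected by flow cytometry. The ura3-52 allele, shared by the 4 strains, is itself a Ty1 insertion in URA3, and Ty positions vary between laboratory strains, while every element below is named by its place in the S288C reference.

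Ty elements are retrotransposons with long terminal repeats (LTRs). The 5′ LTR drives an RNA that is both the messenger and the genome of the element: Gag forms the virus-like particle, and a programmed ribosomal frameshift extends it to Gag-Pol, which brings protease, integrase, reverse transcriptase and RNase H. Ty1, Ty2 and Ty4 belong to the copia group of elements and Ty3 to the gypsy group. Ty1 RNA is abundant in haploid cells, and Ty elements integrate close to genes transcribed by RNA polymerase III.

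The frameshift site shows why the counts of the 2 frames of an element are not independent. In 28 of the 30 elements the Gag frame lies wholly inside the Gag-Pol frame and shares its start codon, so that a read from the first part of the RNA matches both. The exceptions are YARCTy1-1 and YJLWTy4-1, whose frames are annotated apart. The Ty4 site printed below, in YJL113W, belongs to YJLWTy4-1 and so shows no such shared stretch. The 49 bases around the site are printed for 1 element per family, from the R64 reference, 5′ to 3′ on the coding strand, with the slippery heptamer in capitals.
YLR227W-B (Ty1, chrXII:594719-594767, + strand): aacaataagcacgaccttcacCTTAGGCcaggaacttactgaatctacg
YDR034C-D (Ty2, chrIV:518039-518087, - strand): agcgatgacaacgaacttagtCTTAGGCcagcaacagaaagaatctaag
YJL113W (Ty4, chrX:198978-199026, + strand): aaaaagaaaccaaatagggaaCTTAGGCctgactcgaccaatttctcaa
YGR109W-B (Ty3, chrVII:708441-708489, + strand): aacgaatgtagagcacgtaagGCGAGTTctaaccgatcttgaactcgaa
The heptamer CTTAGGC stood at the annotated frameshift of 23 Ty1, 3 Ty2 and 2 Ty4 Gag-Pol frames, and GCGAGTT at that of the Ty3 frame. The remaining Gag-Pol frame, YAR009C, is annotated as truncated and has no such site.

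The element on which the results turn is YDRCTy2-1, a Ty2 on chromosome IV. Its Gag-Pol frame YDR034C-D (chrIV:514043-519356, - strand) is 5314 bases long and contains the Gag frame YDR034C-C (1317 bases). It was 98.4 to 99.2% identical to the other 9 Ty2 Gag-Pol frames of the tables and 73.7 to 77% identical to 22 full-length Ty1 Gag-Pol frames. Only 4 of its bases were found in none of the other Ty2 frames, 1 inside the stretch shared with YDR034C-C and 3 after it. They are printed because none of the other 9 Ty2 Gag-Pol frames of the tables has them, each in capitals with the bases around it.
Position 35 of the frame, chrIV:519302-519342, - strand: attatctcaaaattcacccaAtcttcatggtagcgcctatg
Position 2756, chrIV:516581-516621, - strand: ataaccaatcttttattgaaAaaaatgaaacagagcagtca
Position 3697, chrIV:515640-515680, - strand: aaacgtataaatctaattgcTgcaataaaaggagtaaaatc
Position 4633, chrIV:514704-514744, - strand: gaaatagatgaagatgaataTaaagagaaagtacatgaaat
Each of these 4 windows occurred once in the R64 genome. Of all 75-nt words of YDR034C-D, 6.62% occurred once in the genome. The share was 2.58% for YCL019W and 0% for YGR161W-B, the other Ty2 Gag-Pol frames of the list, and YGR161W-B was identical to YFL002W-A, a Ty2 frame outside it. For the 24 Ty1 Gag-Pol frames the share ran from 0 to 19.3% with a median of 1.44%. It was 47.6% for the Ty3 frame YGR109W-B. The families themselves were further apart: at least 83.8% of the 75-nt words of every Ty1 frame and at least 84.1% of those of every Ty2 frame occurred in no other Ty family. A value for a single Ty1 or Ty2 copy therefore rests largely on reads that match several copies, and the sums over an element and over a family are given beside it.

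The 4 libraries held 37275559 to 54013763 counts. The deposited counts are estimates, and the levels below are TPM, which corrects for gene length and library size, or CPM, the counts of a frame as a share of all counts in its library on the same scale. A ratio of 2 libraries is given with its 95% Clopper-Pearson interval, which covers counting error only: with 1 library per strain there is no replicate check and no test, and differences in the number of cells and in RNA per cell cannot be told apart. A library with 3 counts or fewer was set at 3. A difference was counted as past 2-fold only for the 6010 genes whose mean count reached 10, among them 40 of the 60 frames: all 30 Gag-Pol frames and 10 of 30 Gag frames. The median ratio of those 6010 genes was 0.894 in the denAsCas12a pair (byMM1827 with respect to byMM1777), 1.02 in the dCas12e pair (byMM1832 with respect to byMM1736) and 0.861 between the controls (byMM1736 with respect to byMM1777), so Ty values are to be read against these medians rather than against 1. The genes of the MATa mating type (STE2, STE6, BAR1, MFA1, MFA2, AGA2) summed to between 1971 and 2793 TPM and those of MATalpha (STE3, MF(ALPHA)1, MF(ALPHA)2, SAG1) to between 73.6 and 80.9 TPM, in accordance with the MATa label. Singly, STE6 with 12.0 to 18.05 TPM lay under SAG1 (24.7 to 32.9) and STE3 (18.15 to 23.2). The other MATa genes lay above every MATalpha gene.

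The 60 Ty frames together took 0.387 to 0.506% of all counts. byMM1777 stood highest with 5060 CPM, followed by 4497 in byMM1736, 4274 in byMM1827 and 3869 in byMM1832. The Ty1 frames supplied most of them, from 3584 CPM in byMM1832 to 4532 in byMM1777. The Ty2 frames gave 454.1 CPM in byMM1777, 442.3 in byMM1827, 398.3 in byMM1736 and 210.1 in byMM1832, so that the last library stood well below the other three. The Ty3 element stayed between 66.9 and 72.5 CPM, and the Ty4 elements between 2.78 and 5.10.

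**Figure D1:**
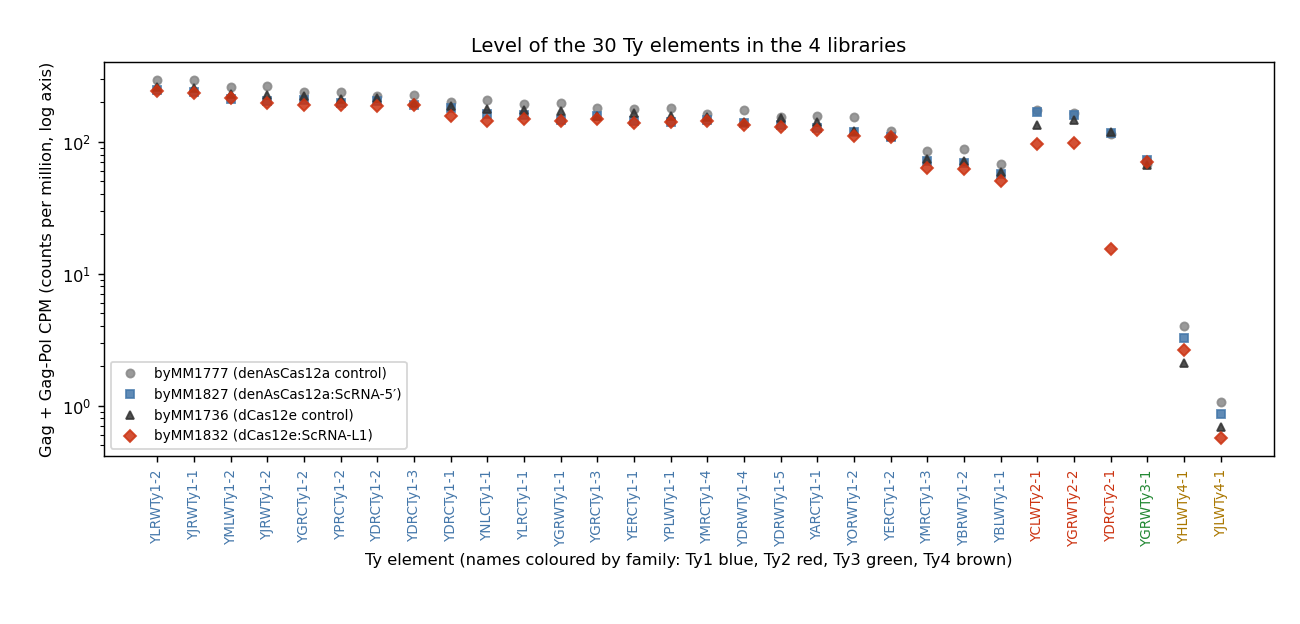
CPM (log axis) of the Gag and Gag-Pol frames of each of the 30 Ty elements, summed per element, in the 4 libraries (1 point each, no error bar since there is 1 library per strain). The 4 points of each Ty1 element lie close together, while the byMM1832 point of YDRCTy2-1, at 15.4 CPM, lies far under its other 3 points, at 114 to 118.

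Per length, the highest of the 60 frames by mean TPM were 3 Ty1 Gag-Pol frames. YLR227W-B had 54.4 TPM in byMM1777, 45.8 in byMM1827, 47.5 in byMM1736 and 44.5 in byMM1832. YJR027W had 54.6, 44.6, 46.6 and 42.9 TPM in the same order. YML039W had 48.4, 39.1, 41.6 and 39.3 TPM. In byMM1777 YJR027W stood above YLR227W-B, and YJR029W, another Ty1 Gag-Pol frame, stood above YML039W with 49.4 TPM. YLR227W-B ranked 2705 of 6418 genes by its mean, so even the leading Ty frame was of middle rank as a single copy. That rank depends on how reads shared among copies were split, and it does not describe Ty1 RNA as a whole. The 48 Ty1 frames of the list summed to between 700 TPM (byMM1832) and 887 TPM (byMM1777). The median Ty1 Gag-Pol frame had between 26.6 TPM (byMM1832) and 35.0 TPM (byMM1777), where the median gene had between 37.2 and 44.3 TPM. The lowest Ty1 Gag-Pol frame by mean level, YBL005W-B at 10.8 TPM, was followed by the Ty4 frames only.

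In the dCas12e pair, 1 Gag frame was higher and 1 Gag-Pol frame lower past 2-fold out of the 40 that could be counted, and both belong to YDRCTy2-1. Among all genes 0.849% were past 2-fold higher and 2.65% lower in this pair. A count of 1 frame in each direction is too small to be set against these shares, while the difference at this element was large.

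The Gag-Pol frame YDR034C-D was listed with 4245 counts in byMM1777, 6303 in byMM1827, 5977 in byMM1736 and 0 in byMM1832. Its level was 21.1, 21.5 and 21.3 TPM in the first 3 libraries and 0 in the last. With the floor of 3 counts this was 1831-fold lower in byMM1832 than in byMM1736 (ratio 0.000546, interval 0 to 0.000672). The Gag frame YDR034C-C went the other way, with 7, 9 and 16 counts in byMM1777, byMM1827 and byMM1736 and 725 in byMM1832. In TPM this was 0.131, 0.115, 0.217 and 11.3, 52.2-fold higher in the dCas12e pair (interval 30.1 to 86.7). byMM1832 thus stood apart from the other 3 libraries on both frames, and those 3 differed by little on either. No other element of the list had its 2 frames past 2-fold in opposite directions in any of the 3 comparisons. The frames overlap, and the way their reads were assembled or counted in byMM1832 cannot be told apart from a difference in the RNA, so neither frame alone is a measure of the element.

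Since the Gag stretch belongs to both frames, the sum of the frames does not change when reads move between them. It does change when reads are placed on other Ty2 copies or on no frame. In byMM1832 the 3997 bases of YDR034C-D after YDR034C-C lay in no frame with counts. The sum held 4252 counts in byMM1777, 6312 in byMM1827, 5993 in byMM1736 and 725 in byMM1832. The ratio of the scaled counts was 0.132 in the dCas12e pair (0.122 to 0.142), 1.02 in the denAsCas12a pair (0.978 to 1.06) and 1.01 between the controls (0.972 to 1.05). When TPM values were summed in place of counts, the sum went from 21.5 in byMM1736 to 11.3 in byMM1832, a ratio of 0.527, because all counts of byMM1832 lie on the frame of 1317 bases and those of byMM1736 on the frame of 5314 bases. Thus the element as counted was lower in byMM1832 on both scales, by 7.60-fold in counts and by less than 2-fold per length. The part of the counting in this difference was not tested. It was the only one of the 30 elements past 2-fold by its summed counts in any comparison. The reads themselves were not used here, so the private bases printed above were not looked up in them.

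**Figure D2:**
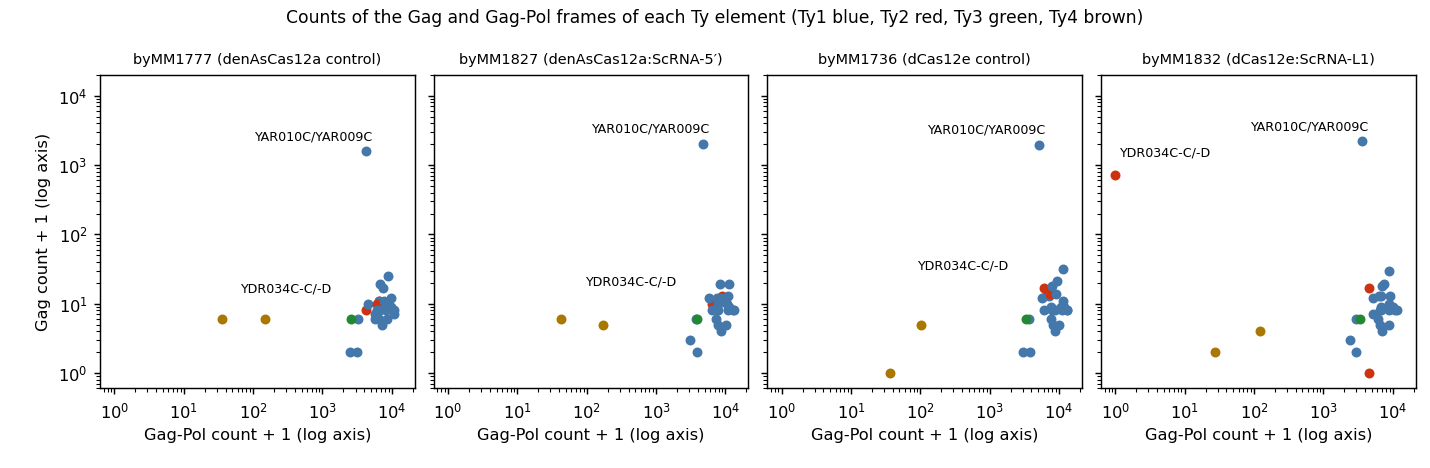
Count of the Gag frame (vertical, count plus 1, log axis) against that of the Gag-Pol frame (horizontal, count plus 1, log axis) of each of the 30 elements, 1 panel per library and 1 point per element. YDR034C-C/-D sits with the other Ty2 elements in 3 panels and at 725 Gag counts and 0 Gag-Pol counts in byMM1832, and YAR010C/YAR009C is the one element with many counts on both frames in all 4 panels.

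The other Gag frames show how the counts were split between overlapping frames. Apart from YAR010C and YDR034C-C, the 28 Gag frames held 0 to 31 counts in every library, and their sum was 222 in byMM1777, 221 in byMM1827, 238 in byMM1736 and 226 in byMM1832, almost the same at every depth. Of the 30 Gag frames, 22 spanned at most 2 counts over the 4 libraries and 8 had the same count in all of them, such as YML040W with 8. The Ty1 Gag-Pol frames of the same elements held 2389 to 13343 counts. The authors' counting thus placed nearly all reads of the shared stretch on the Gag-Pol frame, and a ratio of a nested Gag frame says little about Gag RNA. The 2 frames lower past 2-fold in the denAsCas12a pair were of this kind, against 0.765% of all genes higher and 0.632% lower. YDR098C-A had 16 counts in byMM1777 and 11 in byMM1827 (TPM ratio 0.470, 0.198 to 1.08). YGR038C-A had 24 and 18 (ratio 0.496, 0.263 to 0.987), and both intervals reach above 0.5. Between the controls no frame was past 2-fold, against 0.799% of all genes higher and 1.08% lower.

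YARCTy1-1 on chromosome I is the one Ty1 element of the list whose frames do not overlap: the Gag frame YAR010C (chrI:164544-165866, - strand) ends before the truncated Gag-Pol frame YAR009C (chrI:160597-164187, - strand) begins. YAR010C had 1591 counts in byMM1777, 2037 in byMM1827, 1958 in byMM1736 and 2228 in byMM1832. YAR009C had 4265, 4811, 5175 and 3562 counts in the same order. In the dCas12e pair the ratio was 1.24 for Gag (1.16 to 1.32) and 0.749 for the truncated Gag-Pol (0.717 to 0.782), and the Gag share of the element went from 27.4 to 38.5%. In the denAsCas12a pair the values were 0.877 and 0.773, with a Gag share of 27.2% in byMM1777 and 29.7% in byMM1827. Neither ratio passed 2-fold. A further Ty1 Gag frame with no Gag-Pol partner in the tables, YLR256W-A in the element YLRWTy1-3, lies outside the list and had 3246 counts in byMM1736 and 3717 in byMM1832 (ratio 1.25, 1.19 to 1.31). None of the 75-nt words of YAR010C occurred once in the genome, so its reads can stem from the Gag stretch of other Ty1 copies.

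The Ty2 family as a whole was lower in byMM1832. The 3 Ty2 elements of the list summed to 20182 counts in byMM1736 and 9920 in byMM1832, a ratio of 0.535 (0.522 to 0.548). Without YDRCTy2-1, the ratio was 0.705 (0.687 to 0.724). That element thus accounted for much of the difference of the 3 listed elements and not for all of it. Over all 10 Ty2 elements, on and off the list, the ratio was 0.641 (0.634 to 0.649). Over the 7 outside the list it was 0.679 (0.670 to 0.688), so YDRCTy2-1 weighed less in the whole family. YCLWTy2-1, next to LEU2 on chromosome III, had 6530 counts in byMM1777, 9034 in byMM1827, 6750 in byMM1736 and 4570 in byMM1832, a ratio of 0.737 in the dCas12e pair (0.709 to 0.765). Its Gag-Pol frame YCL019W (chrIII:85102-90415, + strand) had 32.4 TPM in byMM1777, 30.7 in byMM1827, 24.01 in byMM1736 and 17.7 in byMM1832. Its Gag frame YCL020W had 10, 12, 13 and 0 counts and did not reach the mean of 10 counts. In the dCas12e pair its ratio was 0.251 with the floor of 3 counts (interval 0 to 0.357). YGRWTy2-2 had 6146, 8546, 7439 and 4625 counts in the same order, with a ratio of 0.676 (0.652 to 0.702).

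The same was seen in copies outside the list. The tables held 29 further Ty frames in 16 elements, 7 of them Ty2. The 9 Ty2 elements other than YDRCTy2-1, on and off the list, had ratios of 0.603 to 0.737 in the dCas12e pair with a median of 0.679, and none was past 2-fold. The interval of each of the 10 Ty2 elements lay below the median of all genes in this pair. The 24 Ty1 elements of the list had ratios of 0.819 to 0.990 with a median of 0.883, and the ranges of the families did not overlap. Since Ty2 copies share reads with each other, the 10 elements are not 10 independent measurements.

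A comparison within each library needs no scaling between libraries. Per 100 counts on Ty1 frames of the list, Ty2 frames had 10 counts in byMM1777 (9.86 to 10.2), 11.8 in byMM1827 (11.6 to 11.9), 9.89 in byMM1736 (9.74 to 10) and 5.86 in byMM1832 (5.74 to 5.98). Without YDRCTy2-1 the values were 7.5, 8.67, 6.95 and 5.43. Over all 89 Ty frames in the tables they were 28.3, 33.1, 30.4 and 21.3, and byMM1832 was the lowest library in each of these sets. byMM1827 was the highest in each of them. The intervals of byMM1777 and byMM1736 overlapped for the 60 frames, and over all 89 frames byMM1736 was the higher of them.

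**Figure D3:**
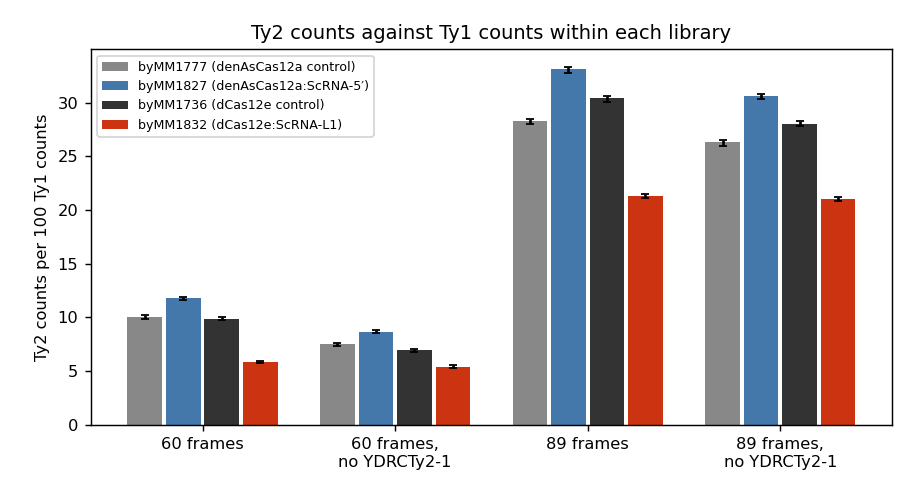
Counts on Ty2 frames per 100 counts on Ty1 frames in each library (bars from 0, 95% Clopper-Pearson intervals as error bars, counting error only), for the 60 frames of the list and for all 89 Ty frames in the tables, with and without the element YDRCTy2-1. The byMM1832 bar is the lowest of each set, at 5.86 against 9.89 to 11.8 for the 60 frames.

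**Figure D4:**
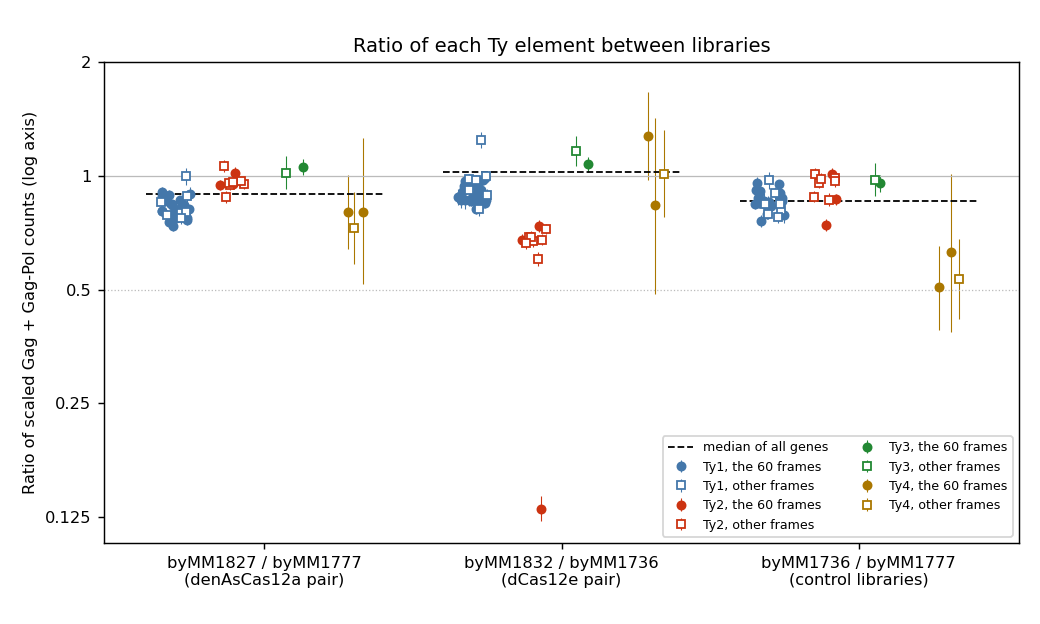
Ratio of the scaled Gag and Gag-Pol counts (log axis) of the 46 Ty elements in the 3 comparisons, 1 point per element with its 95% counting interval, filled for the 30 elements of the list and open for the other 16, coloured by family, with the median of all genes dashed. In the dCas12e pair the Ty2 points lie between 0.603 and 0.737 and YDRCTy2-1 at 0.132, under the Ty1 points of the list at 0.819 to 0.990.

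The Ty1 sum differed by less than 2-fold in every comparison made. It had a ratio of 0.902 in the dCas12e pair (0.896 to 0.908), 0.822 in the denAsCas12a pair (0.817 to 0.828) and 0.867 between the controls (0.861 to 0.872), the last of which became 1.01 with edgeR's TMM factors or DESeq2's size factors. With byMM1777 as the control of byMM1832, the pair with the lowest and the highest Ty1 level, it was 0.782 (0.776 to 0.787). Divided by the median of all genes, the first 3 ratios became 0.881, 0.919 and 1.01. In the dCas12e pair all 24 Ty1 elements of the list lay below the median of all genes, 23 of them with their whole interval. In the denAsCas12a pair 22 did, 19 with their whole interval, and between the controls 14 did, 4 with their whole interval. Among all genes 37.5, 34.6 and 36.5% had their whole interval below the median in these comparisons. Since Ty1 copies share reads with each other, the 24 elements are not 24 independent measurements. Of the 7 Ty1 elements outside the list, 6 lay below the median in the dCas12e pair, 5 with their whole interval. The remaining element, YLRWTy1-3, lay above it at 1.25 (1.19 to 1.31). The lowest Ty1 element was YGRWTy1-1 in the denAsCas12a pair (0.739), YNLCTy1-1 in the dCas12e pair (0.819) and YORWTy1-2 between the controls (0.761). The sum over all 60 frames had ratios of 0.872, 0.838 and 0.867 in the dCas12e pair, the denAsCas12a pair and the controls. The denAsCas12a pair and the control comparison share byMM1777, the library with the highest Ty1 level, and the dCas12e pair and the control comparison share byMM1736.

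The Ty2 elements of the list behaved differently in the denAsCas12a pair: their sum had a ratio of 0.967 (0.948 to 0.986), or 1.08 with respect to the median of all genes, and YDRCTy2-1, YCLWTy2-1 and YGRWTy2-2 had ratios of 1.02, 0.948 and 0.953. Its side of 1 depended on the scaling, since it was also 1.08 with edgeR's TMM factors and with DESeq2's size factors.

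The single Ty3 element differed by little among the libraries. Its Gag-Pol frame YGR109W-B (chrVII:707610-712254, + strand) had 2535 counts in byMM1777, 3911 in byMM1827, 3383 in byMM1736 and 3338 in byMM1832, which is 14.4, 15.2, 13.8 and 14.8 TPM. No library stood apart. The ratio was 1.06 in the denAsCas12a pair (1.01 to 1.11, and 0.908 relative to ACT1), 1.07 in the dCas12e pair (1.02 to 1.13) and 0.957 between the controls (0.909 to 1.01). With respect to the median of all genes these ratios were 1.18, 1.05 and 1.11. Its Gag frame YGR109W-A had 5 counts in each library.

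The Ty4 elements were near the lower limit of the measurement. YHL009W-B, the Gag-Pol frame of YHLWTy4-1 on chromosome VIII, had 145 counts in byMM1777, 172 in byMM1827, 102 in byMM1736 and 121 in byMM1832, or 0.705, 0.573, 0.356 and 0.459 TPM. The 2 denAsCas12a libraries were the higher ones, and the ratio between the controls was 0.505 (0.388 to 0.655), just inside 2-fold. In the dCas12e pair it was 1.29 (0.983 to 1.70). YJL113W, the Gag-Pol frame of YJLWTy4-1 on chromosome X, had 35, 42, 35 and 26 counts, and none of its intervals excluded 1. The Ty4 Gag frames YHL009W-A and YJL114W had 0 to 5 counts. The sum over both elements was 0.532 between the controls (0.425 to 0.665), and the Ty4 element outside the list, YPLCTy4-1, had 0.535 (0.418 to 0.681). With 0.57 to 4.02 CPM per element, smaller differences were not detectable at this depth.

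The LTR sequence at the start of the element is where its RNA is driven from. The first 200 bases of 1 Ty2 and 1 Ty1 element are printed from R64 on the coding strand, because the families differed in byMM1832. Capitals mark matches on either strand to TGAAACA or TGAAACG (forms of the Ste12 site), CATTCT or CATTCC (forms of the Tec1 site), TGACTC (Gcn4) and TATAAA.
YDRCTy2-1 (chrIV:519448-519647, - strand): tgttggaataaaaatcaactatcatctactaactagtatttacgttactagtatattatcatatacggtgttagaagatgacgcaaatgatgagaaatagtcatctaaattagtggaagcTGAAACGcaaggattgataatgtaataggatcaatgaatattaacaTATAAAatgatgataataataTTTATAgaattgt
YLRWTy1-2 (chrXII:593145-593344, + strand): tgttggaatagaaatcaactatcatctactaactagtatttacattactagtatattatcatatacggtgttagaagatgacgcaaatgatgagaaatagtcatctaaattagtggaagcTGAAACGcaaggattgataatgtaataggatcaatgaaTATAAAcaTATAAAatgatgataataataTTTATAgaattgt
The window of YDRCTy2-1 was 98.5 to 100% identical to those of the other 9 Ty2 elements, so this stretch does not set it apart from them. TGAAACG stood in 10 of 10 Ty2 and 23 of 31 Ty1 windows, and in 2.28% of the windows of 200 bases before the start codons of all other genes. TGAAACA stood in 8 of 31 Ty1, 2 of 2 Ty3 and no Ty2 window (4.93% of the other genes). CATTCC stood in 21 of 31 Ty1, 3 of 3 Ty4 and no Ty2 window (5.86% of the other genes), and TATAAA in every Ty1, Ty2 and Ty3 window (36.9% of the other genes). The printed Ty1 window, that of YLRWTy1-2, has no CATTCC and in this is unlike most Ty1 windows. CATTCT and TGACTC were in none of the Ty windows, against 11.1% and 4.96% of the other genes. These are matches of letters in 1 window and no binding sites.

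The ScRNA targets were searched in all 50 Ty elements of R64. They are printed with 1 of the Ty sites with the fewest mismatches and a PAM in front (TTCN for dCas12e, TTTV for denAsCas12a), where capitals mark the mismatches. For the GAL7 target 23 Ty sites were tied at this number and for the HED1 target 19, and the first of each by element name is shown.
GAL7 promoter target of ScRNA-L1 (chrII:275698-275717, + strand): gatcacggtcaacagttgtc
One of the tied Ty sites, in YARCTy1-1 (chrI:162504-162523, + strand): gTtcaGAAAcaGTagttgGc
HED1 promoter target of ScRNA-5′ (chrIV:477665-477684, + strand): acggctttaattagcgtacg
One of the tied Ty sites, in YCLWTy2-1 (chrIII:88793-88812, - strand): acTCctttTattGCTgCaAT
The GAL7 target had no fewer than 8 mismatches over its 20 bases in any Ty site with a PAM, and the HED1 target no fewer than 9. The lexOpR targets of both effectors had no fewer than 8. Without a PAM the fewest were 6 for the GAL7 and both lexOpR targets and 7 for the HED1 target.

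Ty RNA depends on many genes of the host, and 59 of them were read in 7 groups. None was past 2-fold in any comparison: in the dCas12e pair their ratios ran from 0.639 to 1.37 with a median of 0.952, in the denAsCas12a pair from 0.651 to 1.34 with a median of 0.869, and between the controls from 0.553 to 1.32 with a median of 0.849. The medians over all genes were 1.02, 0.894 and 0.861. In the same order, 37, 48 and 53 of the 59 had ratios below 1, against 46% of all genes in the dCas12e pair, 71.6% in the denAsCas12a pair and 76.5% between the controls.

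The 9 activators of Ty1 transcription had a median ratio of 0.979 in the dCas12e pair, with 3 above 1 and 6 below. In the denAsCas12a pair and between the controls the medians were 0.844 and 0.820, each with 1 gene above 1. STE12 had 1.22 in the dCas12e pair (1.13 to 1.31). TEC1, which binds DNA together with Ste12, had the lowest ratio of the 9 in each comparison. It had 89.5 TPM in byMM1777, 62.6 in byMM1827, 63.8 in byMM1736 and 41.8 in byMM1832, with a ratio of 0.655 in the dCas12e pair (0.625 to 0.686) and 0.700 in the denAsCas12a pair (0.673 to 0.728). The ratio between the controls was 0.713 (0.685 to 0.742), so that byMM1777 was the highest library and byMM1832 the lowest. Of 5 subunits of the SAGA coactivator, 3 had ratios above 1 in the dCas12e pair, where the group median was 1.09. In the denAsCas12a pair 2 of them did, and between the controls 1. SPT7, the lowest of the 5 in both pairs, had 7.06, 4.76, 6.81 and 4.42 TPM in byMM1777, byMM1827, byMM1736 and byMM1832. For SPT7 both ScRNA strains thus lay under both controls. The same held for SWI1 of the SWI/SNF remodeller, with 8.00, 5.21, 6.33 and 4.64 TPM. All 7 SWI/SNF genes had ratios below 1 in the dCas12e pair, from 0.732 to 0.960, and 6 of the 7 did in the denAsCas12a pair and between the controls.

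Of the 12 chromatin repressors of Ty1, 5 had ratios above 1 in the dCas12e pair and 7 below, and RLF2, a subunit of chromatin assembly factor 1, had the lowest at 0.639 (0.567 to 0.720). Of the 10 genes that restrict transposition, 9 lay below 1 in each of the 3 comparisons, most genes of the tables doing so in the denAsCas12a pair and between the controls. RTT107, a scaffold of the DNA damage response, had 0.553 between the controls (0.487 to 0.628). NMD2, needed for nonsense-mediated decay and one of 9 cofactors of Ty1 RNA and particles, had 12.6, 9.63, 8.16 and 10.8 TPM in byMM1777, byMM1827, byMM1736 and byMM1832. Of the 7 genes for integration and RNA polymerase III, all lay below 1 in the denAsCas12a pair and between the controls and 3 in the dCas12e pair, and BDP1, a subunit of TFIIIB, had 22.7, 17.6, 14.4 and 14.8 TPM. The part of these genes in the Ty levels was not tested.

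**Figure D5:**
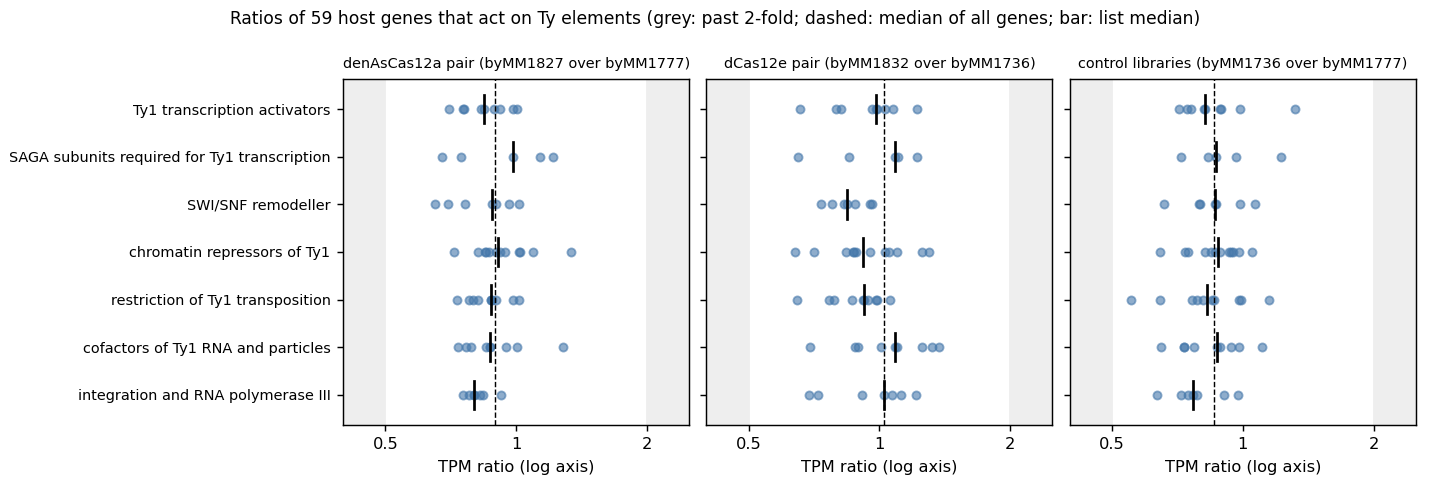
TPM ratios (log axis) of the 59 host genes in 7 groups, 1 point per gene, 1 panel per comparison, with the median of each group as a bar, the median of all genes dashed and the range past 2-fold in grey. No point enters the grey range, and the group medians lie between 0.769 and 1.09.

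The genes that flank the 30 elements were read as the nearest other protein-coding gene on each side, 57 genes in all. None was past 2-fold in the dCas12e or the denAsCas12a pair, and the medians were 1.07 and 0.862. The neighbours of YDRCTy2-1 were LYS14, the activator of lysine biosynthesis genes, 1583 bases away, and CPP3, 1667 bases away on the other side. LYS14 had 2202 counts in byMM1777, 1922 in byMM1827, 1977 in byMM1736 and 1309 in byMM1832 (dCas12e pair 0.720, 0.671 to 0.773), and CPP3 had 716, 992, 742 and 1050 (1.54, 1.40 to 1.69). Both genes lie outside the element, and whether the element is present in byMM1832 was not tested. On the left of YCLWTy2-1, YCL021W-A was listed with 365 counts in byMM1777 and 391 in byMM1827 and with 0 in both byMM1736 and byMM1832, which makes it at least 170-fold lower in byMM1736 than in byMM1777. LEU2 on its right, whose reads include those of the Leu2 marker, had ratios of 1.13, 1.33 and 1.24 in the denAsCas12a pair, the dCas12e pair and the controls. YDR209C, 6854 bases from YDRCTy1-2, was the one neighbour past 2-fold higher, between the controls (2.17, 2.12 to 2.23), with 8122 counts in byMM1777, 21576 in byMM1827, 24573 in byMM1736 and 32596 in byMM1832. The Ty2 element YDRWTy2-2, outside the list, lies between YDR209C and YDRCTy1-2 and is the closer of the 2 elements.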

How the data were processed

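RNA-seq was done on 1 library from each of 4 strains, grouped by strain as the labels give them. The authors deposited a table of counts per gene and a table of TPM. The counts are estimated counts: they are whole numbers, but for genes with under 200 counts the deposited count stood 0 to 1 above the value that its TPM implies in 85.8 to 87.9% of cases, as rounding up gives. Per the submitters' processing notes the tools were FastQC, Trimmomatic, HISAT2, bedtools, StringTie and DESeq2. The genome build, the strand setting and the rule for reads with several matches are not given in the sources used here. The 2 deposited comparison tables hold the authors' fold changes and p-values and were not used, nor were 4 columns of strains without labels in this series.

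TPM was a fixed multiple of the count per gene length within a library, so sums of counts were scaled by that multiple. Ratios carry 95% Clopper-Pearson intervals (scipy 1.17.1), which treat estimated counts as counts. Genes needed a mean of 10 counts to be counted past 2-fold, and a count of 3 or fewer was set at 3. TMM factors came from edgeR 4.0.16 and size factors from DESeq2 1.42.0, for scaling only. Elements, frames and sequences come from R64 (RefSeq), aligned with edlib 1.3.9.post1. The scripts were tested on simulated data. Described by name were both frames of YDRCTy2-1 and YCLWTy2-1, all Ty3 and Ty4 frames, the 3 frames of highest TPM, up to 5 rises and falls per comparison with at least 50 counts and an interval past 2-fold, and the host gene whose ratio lay farthest from 1 in each group; frames named beyond these, YAR009C, YAR010C, YLR256W-A, YDR098C-A, YGR038C-A, YJR029W and the lowest elements, were chosen after their values were seen. The members and gene groups were chosen with earlier results of these data known. STE12 was named as the partner of TEC1 after its values were seen.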

Additional observations from a re-analysis of the deposited data

Results flagged for a closer look

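NMD2, which acts in nonsense-mediated decay, had a ratio of 0.766 (0.715 to 0.821) in the denAsCas12a pair and of 1.32 (1.23 to 1.42) in the dCas12e pair. The ScRNA strain thus lay below its control in the first pair and above it in the second. The controls themselves differed, with a ratio of 0.649 (0.604 to 0.698). Both ScRNA strains lay between them, at 9.63 TPM in byMM1827 and 10.8 in byMM1832. The difference between the pairs was not tested, since each strain has 1 library.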

How the results depend on the processing

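No paired analysis was possible because each group has 1 library and the strains share no replicate beyond that number. The 2 frames past 2-fold in the dCas12e pair, both of YDRCTy2-1, were 2 in number under every alternative except without a filter on low counts, where they were 3, and the element past 2-fold was 1 except with summed TPM, where it was 0 (the construction shows why: the 2 frames differ in length). The 2 frames of the denAsCas12a pair became 1 with counts per total count or thinned counts, and 0 with TMM, size factors, the other control, 1 or 0.1 TPM added, a mean of 100 counts, 3-fold, or an interval wholly past 2-fold, and 3 without a filter on low counts. Between the controls 0 frames became 1 relative to ACT1 and without a filter, and 0 elements became 1 relative to ACT1 and with summed TPM.

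The sum over the 60 frames moved from 0.838 in the denAsCas12a pair to 0.845 (counts per total count), 0.939 (TMM), 0.940 (size factors), 0.721 (ACT1), 0.968 (other control) and 0.856 (all Ty frames). In the dCas12e pair it moved from 0.872 to 0.860, 0.852, 0.856, 0.815, 0.756 and 0.854 in the same order, to 0.891 with summed TPM and to 0.892 without YDRCTy2-1, an alternative chosen after seeing the data. Between the controls it moved from 0.867 to 0.889 (counts per total count), 0.753 (ACT1) and 0.875 (all Ty frames), and turned to 1.01 with TMM (1.008) and with size factors (1.012), as did the Ty1 sum (1.008 and 1.012). The Ty1 sum of the dCas12e pair was 0.890, 0.881, 0.885, 0.842 and 0.782 under the first 5 settings and 0.910 with summed TPM. The Ty2 sum of that pair was 0.535, and 0.4995 (ACT1), 0.457 (other control), 0.652 (summed TPM) and 0.705 (without YDRCTy2-1). In the denAsCas12a pair the Ty2 sum turned to 1.08 with TMM (1.082) and size factors (1.084) and to 1.13 with the other control, the Ty3 sum to 0.908 (ACT1), and the Ty4 sum to 1.51 (other control). TMM and size factors set the median of all genes near a ratio of 1 in each comparison, where TPM left it at -0.16, 0.03 and -0.22 on the log2 scale. The ratio of YDR034C-C in the dCas12e pair ran from 10.1 (1 TPM added) to 80.8 (other control). Of 290 settings for single named frames, 231 stayed within the counting interval and 19 lay on the other side of 1, of which 8 concern a ratio whose interval excluded 1. These were YCL019W in the denAsCas12a pair (1.06 with TMM and with size factors, 1.28 with the other control), YGR109W-B in that pair (0.909 relative to ACT1), and, between the controls, YLR227W-B (1.015 with TMM, 1.018 with size factors) and YML039W (1.001 and 1.004). YHL009W-B, whose intervals held 1, went from 0.812 to 1.61 in the denAsCas12a pair and from 1.29 to 0.651 in the dCas12e pair with the other control. Counting error limits the Ty4 and nested Gag frames most, and 1 library per strain limits every comparison.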
